A study of Drosophila melanogaster with 12 samples.

Results

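The heads of male Drosophila melanogaster of the population aggressive I were compared with those of the population neutral II on Affymetrix arrays, 3 arrays from each, which are 6 of the 12 arrays of the series. The arrays were chosen by their titles alone, and every probe set that is not a control was considered, 13966 in all. Both populations are Canton-S, a standard laboratory wild type, and no transgene or mutant allele is named for either. The males of aggressive I come from 21 generations of selection for aggressive behaviour. The males of neutral II were drawn at random, over the same number of generations, from cages of 120 males after the 15 to 30 aggressive ones had been taken out, and the series design states that this selection for less aggression had no significant effect. All males were 5 days old, were frozen in groups of about 120 and stored in groups of about 40, and whole heads were used. Aggressive II and neutral I, the second population of each kind, gave 3 arrays each and serve below as a pair that shares no array with the first. Each side of the comparison is 1 population, so that the effect of selection and chance divergence of the 2 populations cannot be told apart here. Nothing in the labels says that the 3 arrays of a population are from separate cultures, and p-values then measure only the spread between these arrays, which may be technical.

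A fly head holds brain, compound eyes, antennae, fat body, muscle and blood cells, and an array of whole heads reads all of them at once. Odorant-binding proteins are small secreted proteins that carry hydrophobic ligands, and several are made by support cells of antennal sensory hairs. The fat body around the brain secretes antimicrobial peptides, many of them under the Toll pathway, and expresses detoxifying enzymes such as cytochromes P450 and glutathione S-transferases. Fighting between males depends on smell and taste and on amines and peptides of the brain, and these families are taken up below.

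The deposited values are MAS5 signals, a linear measure of the brightness of a probe set over several probe pairs, scaled so that each array has about the same trimmed mean. Median signal per array lay between 962.7 and 996.6 in aggressive I and between 972.1 and 1006 in neutral II. The markers Arr2 and trp (photoreceptors), nSyb and elav (neurons), repo and Gs2 (glia) and apolpp and Lsp2 (fat body) lay far above the filter on dim probe sets in both groups. The neuron marker brp was under the filter, with mean signals of 263 in aggressive I and 433 in neutral II. The fat body marker Fbp1, at 828 and 1000, lay not far above it. None of 3 accessory gland markers on the array passed the filter. The summed signal of 2 muscle markers was 7046 to 8429 in aggressive I and 5261 to 6175 in neutral II, with no overlap. That of the photoreceptor markers Arr2 and trp did not overlap either, at 224463 to 236319 in aggressive I and 202756 to 212833 in neutral II. Neither gene passed in limma (adjusted p = 0.599 and 0.579). The sum of 3 antennal markers, which include Obp83b, was 382 to 655 in aggressive I and 1180 to 1467 in neutral II. The sums of neuron, glia and fat body markers overlapped, and that of blood cell markers is given below. Nearly all of the muscle sum is the gene up. The other marker, Act88F, was under the filter, with mean signals of 92.9 in aggressive I and 55.9 in neutral II. The ratio of the 3′ to the 5′ probe set of GAPDH, a measure of how complete the labelled RNA is, was 4.18, 5.03 and 4.85 in aggressive I, against 3.99, 3.66 and 3.04 in neutral II. That of eIF-4a was 3.74, 3.74 and 3.68 in aggressive I, against 2.59, 2.97 and 3.24 in neutral II. Neither ratio overlapped between the groups (exact two-sided permutation p = 0.1, the smallest that 3 arrays against 3 can give), and the ratio of actin overlapped. The part of this difference in the results below was not tested. Array 2 of aggressive I stood furthest from the others of these 6, with a mean correlation of 0.952 to the remaining arrays of the series and an 18S ribosomal RNA signal of 20798, against 6595 and 6887 on the other arrays of its population.

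**Figure D1:**
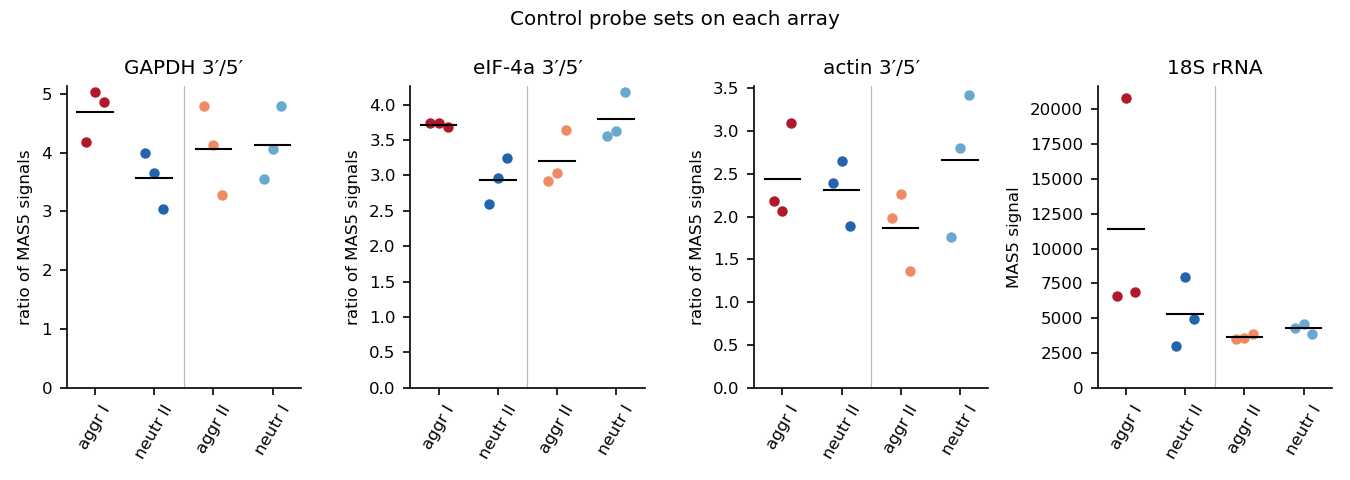
Ratios of 3′ to 5′ control probe sets (linear axis from 0) and the 18S ribosomal RNA signal (MAS5 signal, linear axis from 0) on each array, with points for arrays and bars for means of 3 arrays. GAPDH and eIF-4a ratios of aggressive I lie above all those of neutral II, while actin ratios overlap, and array 2 of aggressive I has the highest 18S signal of the 12 arrays.

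Of the probe sets, 8379 had a mean signal above the 40th percentile and were tested. Between aggressive I and neutral II, 98 of them passed a limma adjusted p of 0.05, which is 1.17% of those tested, with 50 higher and 48 lower in aggressive I (0.597% and 0.573%). All 98 had arrays that did not overlap between the groups, as had 1638 probe sets (19.5%) of all those tested. At an unadjusted p under 0.05 there were 1053 (12.6%). The 98 include 88 probe sets that name a single gene, for 87 genes, of which 45 were higher and 42 lower. Log2 differences ran over sizes of 0.48 to 2.81 among the higher ones (median 0.79), with 12 past 1, and of 0.45 to 2.06 among the lower ones (median 0.87), with 20 past 1. The probe sets that were higher had a median signal, averaged over the 6 arrays, of 5422, and those that were lower of 1975, beside 2151 for all those tested. With 1 probe set per gene, 79 of 6871 genes passed (1.15%), 44 higher (0.64%) and 35 lower (0.509%). Of the 6871 genes, 851 had an unadjusted p under 0.05.

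The list of calls depends on each array. Leaving out 1 of the 6 arrays gave between 36 calls (without neutral II array 2) and 57 (without aggressive I array 3), with 48 and 53 without aggressive I arrays 1 and 2 and 42 and 45 without neutral II arrays 1 and 3. Of the 98 calls, 30 passed in all 6 of these fits, 16 higher and 14 lower, and 31 passed in none of them. When only the 6 arrays compared were fitted, so that the other populations gave nothing to the variance, 26 probe sets passed, 23 of them among the 98 and 19 among the 30. The genes among the 30 are called firm below, which speaks of leaving out 1 array only, and their adjusted p with only the 6 arrays is given where it missed 0.05. For other genes the adjusted p over the 6 fits is given as a range.

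**Figure D2:**
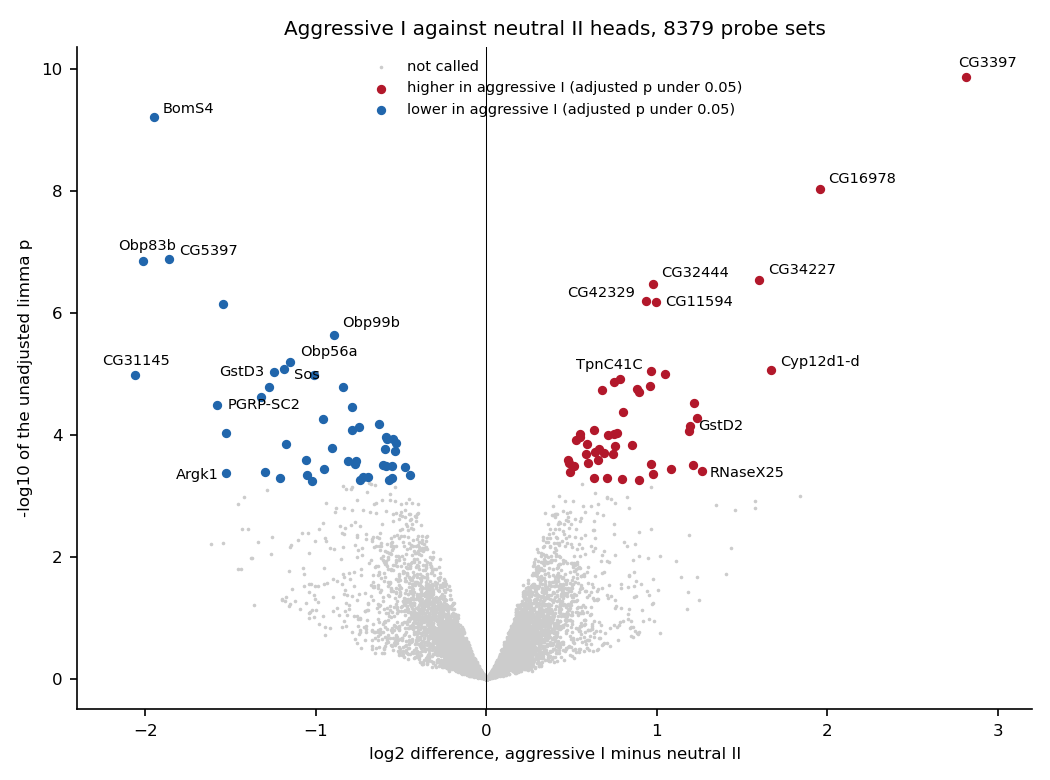
Each point is 1 of 8379 probe sets, with the log2 difference of aggressive I minus neutral II on the horizontal axis and -log10 of the unadjusted limma p on the vertical axis. The 50 probe sets that passed and were higher in aggressive I are red, the 48 that passed and were lower are blue, and CG3397 stands furthest to the right at 2.81.

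Among the secreted carriers of odorants and other hydrophobic ligands, 3 of 17 tested odorant-binding protein genes changed and all 3 fell, against 0.509% of all genes that fell. The array holds 36 such genes, and 19 were under the filter. Obp83b is among the 17 tested only through the populations in which it was bright, so the share that fell is only a description. Obp83b, which is made in the antenna, had signals of 204.6, 132 and 116.1 in aggressive I heads, against 913, 724.1 and 1089.7 in neutral II heads. The groups lie far apart, with the aggressive I signals near the 94.6 that was added before taking logs, so that the log2 difference of -2.01 (SE 0.17, limma adjusted p = 0.000231), or 4.04-fold lower, understates the change. The other populations had 1209.8, 996.9 and 1252 (aggressive II) and 1106, 1063 and 899.1 (neutral I), so that aggressive I was the one that stood apart. Obp56a gave 5346, 5501 and 3814 in aggressive I and 11265, 11272 and 10429 in neutral II (log2 difference -1.15, adjusted p = 0.00445). Obp99b, among the brightest of the tested probe sets, gave 37643, 41907 and 39022 in aggressive I and 76454, 75979 and 70990.2 in neutral II (log2 difference -0.90, adjusted p = 0.00176). All 3 genes are firm. With only the 6 arrays fitted Obp99b passed, Obp56a missed the threshold (adjusted p = 0.0525) and Obp83b was under the filter and had no value. The remaining 14 genes had log2 differences between -0.34 (Obp99a) and 0.47 (Obp57c), and the median over all 17 was 0.05 (-0.03 after quantile normalisation), beside 0.011 over all genes tested. Of other antennal markers, lush and Orco were under the filter, with mean signals of 127 and 274 in aggressive I and 180 and 205 in neutral II, and Obp83a has no probe set that names it alone. In whole heads, fewer cells of a type and less RNA per cell cannot be told apart. Of 124 chemoreceptor genes on the array, 11 were bright enough to test, and none passed in limma, also at an unadjusted p under 0.05.

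**Figure D3:**
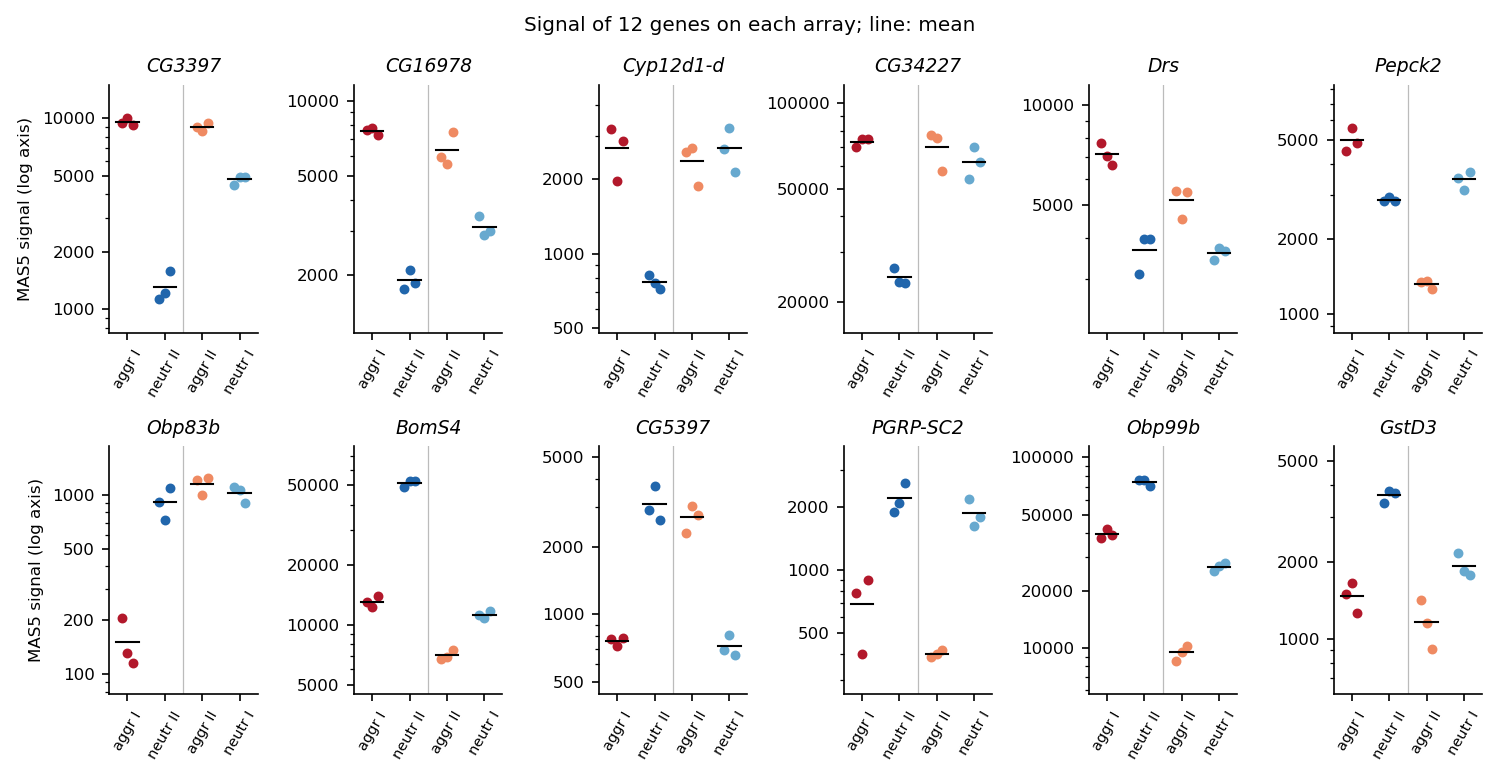
MAS5 signal (log axis) of 12 genes on each array, with points for arrays and lines for the mean of 3 arrays. In each panel aggressive I and neutral II stand left of the grey line and do not overlap, and aggressive II and neutral I stand right of it.

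Immune genes moved in both directions. Of 38 tested, 5 rose (Drs, BomBc3, Mtk, BomT2 and Drsl5) and 2 fell (BomS4 and PGRP-SC2), against 1.15% of all genes that changed, and the median log2 difference was 0.14 with 26 above 0. BomS4 belongs to the Bomanins, short secreted peptides induced by the Toll pathway, and had 12988, 12242 and 14021 in aggressive I heads, against 48936, 52531 and 52464 in neutral II heads. It was 3.86-fold lower (log2 difference -1.95, SE 0.098, limma adjusted p = 2.56e-06) with little spread within either group, and it is firm. No other Bomanin tested fell. BomT2 rose with 60097, 65534 and 60143 in aggressive I, against 43701, 42624 and 44284 in neutral II (log2 difference 0.52), and BomBc3 rose by a log2 difference of 0.80. BomS2, BomS5, BomS6, BomBc2 and BomT3 had log2 differences of 0.22, 0.43, 0.18, 0.37 and 0.40, and none of them passed. Bomanins resemble each other in sequence, and cross-hybridisation between their probe sets was not tested.

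Drs encodes drosomycin, an antifungal peptide. Its signal was 7701, 7062 and 6590.2 in aggressive I, against 3104, 3960.1 and 3957 in neutral II, a log2 difference of 0.96 (SE 0.13, limma adjusted p = 0.00572), and it is firm but did not pass with only the 6 arrays (adjusted p = 0.0778). Drsl5, a drosomycin relative, gave 88036, 93666 and 83903 in aggressive I and 63852, 66631 and 61591 in neutral II (log2 difference 0.48). Mtk, metchnikowin, another antifungal peptide, gave 9932, 11246 and 10764 in aggressive I and 7172, 7217 and 6101 in neutral II (log2 difference 0.65). The groups do not overlap for any of the 3, as for all 98 calls and for 19.5% of all probe sets tested. The calls of BomT2, BomBc3, Mtk and Drsl5 were lost without any 1 of the 6 arrays (adjusted p between 0.0596 and 0.164 over the 4 genes), so that 3 immune calls were left in each of those fits, 1 higher and 2 lower. PGRP-SC2, a secreted amidase that breaks down bacterial cell wall fragments, had 778.2, 398.9 and 894.4 in aggressive I, against 1905, 2088 and 2605 in neutral II (log2 difference -1.58, SE 0.23, adjusted p = 0.00894), with array 2 of aggressive I lowest, and it is firm but did not pass with only the 6 arrays (adjusted p = 0.0975). DptB, an antibacterial diptericin of the Imd pathway, had mean signals of 2697 in aggressive I and 5488 in neutral II and did not pass (log2 difference -0.98, adjusted p = 0.133). The components of the pathways themselves (spz, Tl, cact, Dif, dl, imd, Rel) lay between -0.21 and 0.34 and none passed.

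The list of genes related to blood cells gave 2 calls among 16 tested, both higher, against 0.64% of all genes that rose. Which cells of the head made this RNA was not read. NimB4, a secreted Nimrod protein, had 6817, 6233 and 7879.8 in aggressive I, against 4243, 3567 and 3519 in neutral II (log2 difference 0.88, SE 0.12, limma adjusted p = 0.0058), and it is firm but did not pass with only the 6 arrays (adjusted p = 0.0909). NimB5, its neighbour among the genes tested, had 1492, 2019.8 and 1106 in aggressive I and 862.2, 649.9 and 524.5 in neutral II (log2 difference 1.08, adjusted p = 0.0378), and the adjusted p of NimB5 ran from 0.0261 to 0.146 over the 6 fits, passing without aggressive I array 3 or neutral II array 1 alone. None of the markers of the blood cells themselves passed. Hml had a log2 difference of -0.02, NimC1 of -0.47 (adjusted p = 0.0827), crq of -0.42 and eater of 0.10, and the median of the list was -0.16. The summed signal of Hml, NimC1 and eater was 7168 to 7559 in aggressive I and 7772 to 7962 in neutral II, without overlap. Most of that gap comes from NimC1, with mean signals of 1169 in aggressive I and 1680 in neutral II. The part of the sum in the 2 calls was not tested.

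**Figure D4:**
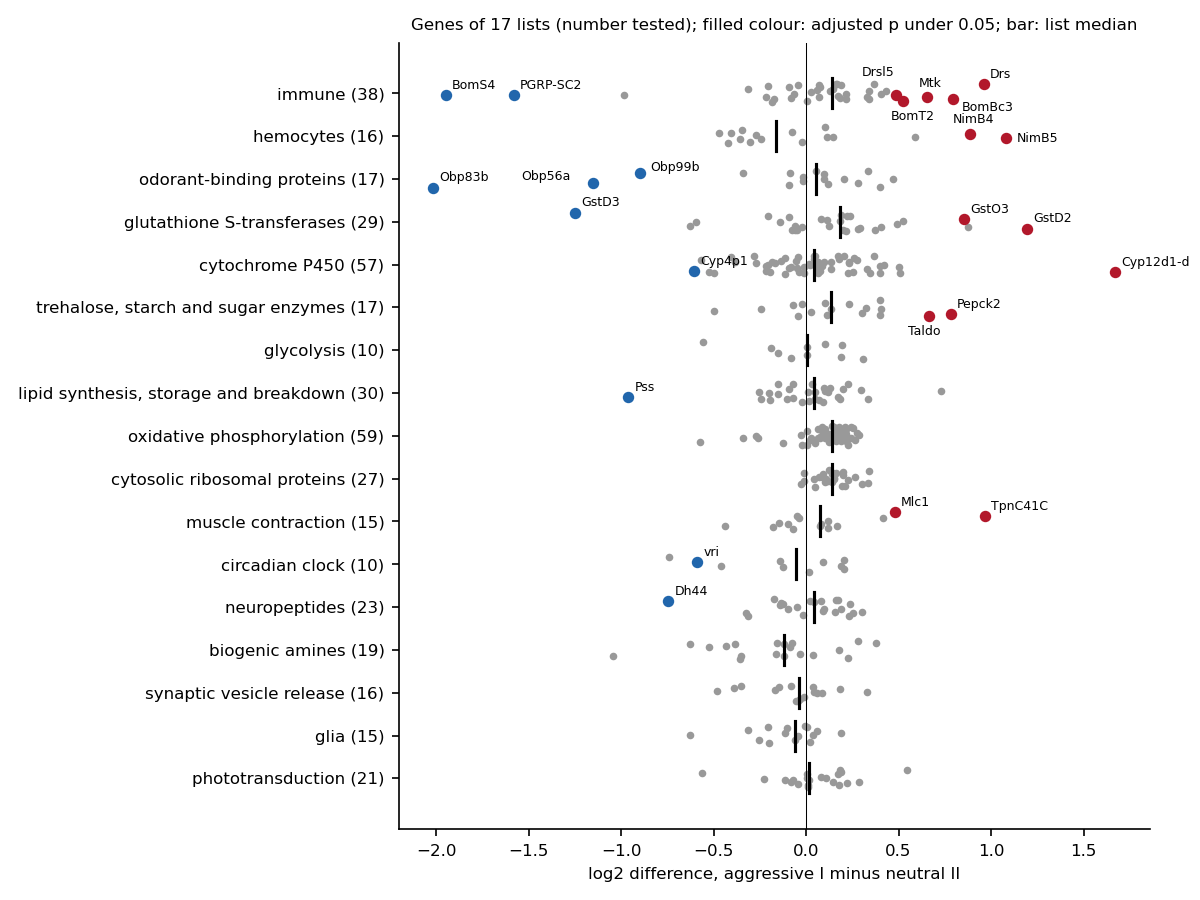
Log2 difference of aggressive I minus neutral II (horizontal axis) for each tested gene of 17 gene lists, with the number tested in brackets. Grey points did not pass, red points rose and blue points fell at an adjusted p of 0.05, and the black bar is the median of a list. Coloured points on both sides of 0 appear among immune genes, glutathione S-transferases and cytochromes P450, while odorant-binding proteins have blue points only.

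Of 57 cytochrome P450 genes tested, which oxidise toxins, hormones and fatty acids, Cyp12d1-d rose and Cyp4p1 fell, against 1.15% of all genes that changed, and the median log2 difference was 0.04. Cyp12d1-d, a mitochondrial P450, gave 3206, 1973 and 2852 in aggressive I, against 825.4, 763.2 and 721.4 in neutral II, and was 3.19-fold higher (log2 difference 1.67, SE 0.21, limma adjusted p = 0.00457). It is firm. Its signal in aggressive II was 2578, 2669.8 and 1889.5 and in neutral I 2646, 3224 and 2147, so that neutral II was the population that stood apart. The near-identical copy Cyp12d1-p can share its signal, and which copy was read is uncertain. Cyp4p1 gave 10874, 9722 and 11122 in aggressive I, against 15190.3, 17149 and 16629.7 in neutral II (log2 difference -0.61, adjusted p = 0.0351), a call lost without any 1 of the 6 arrays (adjusted p 0.0672 to 0.148). Cyp6a20, a P450 linked to male aggression in flies, did not pass. It gave 8758, 6650.3 and 7771 in aggressive I, against 9065, 11842 and 12380 in neutral II, without overlap, as 19.5% of probe sets did, and differed by -0.50 on the log2 scale (SE 0.16, 95% interval -0.85 to -0.15, adjusted p = 0.209). It passed under none of 16 alternative settings. Between aggressive II and neutral I it fell by a log2 difference of -1.33 (adjusted p = 0.00307), and the 2 differences were not told apart (adjusted p = 0.221 for the difference between the pairs).

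Glutathione S-transferases, which attach glutathione to toxins and pigments, gave 3 calls among 29 genes, against 1.15% of all genes that changed, and a median of 0.18 with 18 above 0, beside 0.011 and 52.0% above 0 for all genes. GstD2 and GstD3 are neighbours in the delta cluster and moved in opposite directions. GstD2 gave 2838, 2608 and 2668 in aggressive I and 901.1, 1262 and 1314 in neutral II (log2 difference 1.19, limma adjusted p = 0.0165). GstD3 gave 1502, 1654 and 1266 in aggressive I and 3428, 3810.4 and 3742 in neutral II (log2 difference -1.25, adjusted p = 0.00457). GstD3 is firm, and GstD2 lost its call without aggressive I array 1 or 3 or neutral II array 1 (adjusted p 0.0348 to 0.065 over the 6 fits). The delta genes are similar in sequence, and cross-hybridisation between their probe sets was not tested. GstO3 and se, neighbours of the omega class, both rose. GstO3 gave 6136, 5063 and 6059.6 in aggressive I and 3496, 3191 and 2838 in neutral II (log2 difference 0.86, adjusted p = 0.0227). The gene se makes an enzyme of the red eye pigments, the drosopterins, and gave 3412, 3402 and 3979.6 in aggressive I and 2366, 2124 and 2053 in neutral II (log2 difference 0.71, adjusted p = 0.0185). Over the 6 fits that leave out 1 array the adjusted p ran from 0.0323 to 0.091 for GstO3, which passed without aggressive I array 2 alone, and from 0.0383 to 0.0815 for se, which passed without aggressive I array 2 or neutral II array 1. No other of 14 eye pigment genes passed.

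Of 17 genes of sugar use tested 2 rose, against 0.64% of all genes, and 12 lay above 0 with a median of 0.13, beside 52.0% and 0.011 for all genes. Pepck2, a phosphoenolpyruvate carboxykinase, the enzyme class that commits carbon to new glucose, had 4535, 5570.3 and 4845 in aggressive I, against 2845, 2950.2 and 2857 in neutral II (log2 difference 0.78, SE 0.1, limma adjusted p = 0.0051), and it is firm but did not pass with only the 6 arrays (adjusted p = 0.079). Its paralogue Pepck1 had a log2 difference of -0.02. Taldo, transaldolase of the pentose phosphate pathway, gave 31726, 27910 and 33561 in aggressive I, against 19929, 19832 and 19571 in neutral II (log2 difference 0.66, adjusted p = 0.0242), and passed in 1 of the 6 fits that leave out an array, without aggressive I array 2 (adjusted p 0.0294 to 0.0924). Outside that list, CG32444, whose RefSeq synonyms name an aldose 1-epimerase, gave 27470.5, 26611 and 26746 in aggressive I and 13582, 13551 and 14249 in neutral II (log2 difference 0.98, SE 0.09, adjusted p = 0.000392), and is firm. Galt, also outside the list, a uridylyltransferase of galactose breakdown, gave 15657, 14694 and 15219 in aggressive I and 8929, 9659 and 9929.9 in neutral II (log2 difference 0.69, adjusted p = 0.0267), a call lost without any 1 of the 6 arrays (adjusted p 0.0681 to 0.108). Of 10 glycolytic genes none passed, with 1 at an unadjusted p under 0.05, and their median was 0.004. Of 30 lipid genes, Pss, phosphatidylserine synthase, alone passed, against 0.509% of all genes that fell, with 3450, 4306 and 4232 in aggressive I and 7670.2, 8771 and 7386 in neutral II (log2 difference -0.96, adjusted p = 0.0135), and it lost its call without aggressive I array 1 or neutral II array 2 (adjusted p up to 0.0624).

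Of 59 oxidative phosphorylation genes tested, which are genes of the respiratory chain and the ATP synthase, none passed. In aggressive I minus neutral II 52 of them lay above 0 with a median log2 difference of 0.14, beside 52.0% above 0 and 0.011 for all genes. In aggressive II minus neutral I 51 of the 59 lay above 0 with a median of 0.093, and none passed there either. These medians have no test of their own. The largest was UQCR-Q at 0.29 (adjusted p = 0.393) and the lowest ATPsynepsilonL at -0.58 (adjusted p = 0.515), and 7 had an unadjusted p under 0.05 in limma. Cytosolic ribosomal proteins had the same median of 0.14, with 24 of 27 above 0, and none passed (2 at an unadjusted p under 0.05). Mitochondrial ribosomal proteins had a median of 0.06 over 63 genes, and none passed (5 at an unadjusted p under 0.05). The median of the oxidative phosphorylation list was 0.085 after quantile normalisation, and between 0.11 and 0.17 in the fits that leave out 1 of the 6 arrays.

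Of 15 contractile genes 2 rose, against 0.64% of all genes. TpnC41C, a troponin C, gave 5429.9, 5993 and 5569.7 in aggressive I, against 3028, 2552 and 3112 in neutral II (log2 difference 0.97, SE 0.12, limma adjusted p = 0.00457), and is firm. Mlc1, a myosin light chain, gave 14462, 13621 and 13454 in aggressive I, against 10178, 9798 and 10067 in neutral II (log2 difference 0.48, adjusted p = 0.0327), a call lost without any 1 of the 6 arrays (adjusted p 0.074 to 0.121). The troponin T gene up had a log2 difference of 0.41 (adjusted p = 0.285) and Prm, paramyosin, of -0.44, and the median of the list was 0.08. The muscle marker sum given above, which did not overlap between the groups, is nearly all the signal of up and adds no separate measure. Of the 15 genes 8 lay above 0. How far the amount of muscle in the samples enters these 2 calls was not tested.

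Of 10 clock genes 1 passed, of 23 neuropeptide genes 1 and of 19 amine genes none, against 1.15% of all genes. In the clock list vri, which represses Clk in the clock loop, fell, with 8020.2, 9394 and 8605 in aggressive I, against 14331, 12283 and 13130.2 in neutral II (log2 difference -0.59, SE 0.1, limma adjusted p = 0.0189). The adjusted p of vri ran from 0.0344 to 0.0805 in the 6 fits, passing without aggressive I array 2 alone. The clock genes tim and per, which oscillate with vri in heads, did not pass, with log2 differences of -0.74 (adjusted p = 0.124) and -0.46 (adjusted p = 0.236), and Clk and cyc stood at 0.20 each. All heads were taken within 1 labelled time window of the day. Whether both groups were matched within that window was not read, and the part of time in these values was not tested. Among neuropeptides Dh44, a diuretic hormone made by brain neurosecretory cells, fell, with 784, 737.5 and 896.9 in aggressive I and 1568, 1331 and 1392 in neutral II (log2 difference -0.74, adjusted p = 0.0475), and lost the call without any 1 of the 6 arrays (adjusted p 0.0712 to 0.181). Of the 19 genes for the synthesis, transport and reception of amines, 4 had an unadjusted limma p under 0.05, beside 851 of all 6871 genes. Above 0 lay 5 of the 19, with a median of -0.12, beside 52.0% and 0.011 for all genes. In aggressive II minus neutral I 11 of the 19 lay above 0, with a median of 0.037. In aggressive I minus neutral II the serotonin receptor 5-HT2A stood at -0.63 (adjusted p = 0.175). The dopamine and ecdysteroid receptor DopEcR stood at 0.38 there (adjusted p = 0.176). At a median SE of 0.17 for a log2 difference over all probe sets tested, small changes of such genes were not detectable with 3 arrays a group.

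Sos, nocte and Cpr100A, which share no list, were among the other genes that fell. Sos, which activates Ras, gave 483, 509.3 and 400.9 in aggressive I, against 1320.2, 1076 and 1186 in neutral II (log2 difference -1.19, SE 0.15, limma adjusted p = 0.00457), and is firm. The gene nocte, needed for the clock to follow temperature cycles, gave 760, 1420.1 and 856.6 in aggressive I and 2729, 1998 and 1822 in neutral II (log2 difference -1.05, adjusted p = 0.0432). Cpr100A, a cuticle protein and the only one of 47 tested to pass (0.509% of all genes fell), gave 797.5, 498.7 and 554.3 in aggressive I and 1533, 1321 and 1307 in neutral II (log2 difference -1.06, adjusted p = 0.0327). These 2 calls were each lost in 5 of the 6 fits, passing without aggressive I array 2 (nocte) or aggressive I array 1 (Cpr100A) alone, with adjusted p from 0.0129 to 0.174 and from 0.0274 to 0.121.

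Some of the clearest differences were in genes with no function named in the tables used here. CG3397 gave 9492, 10016 and 9249 in aggressive I, against 1132, 1212 and 1589.5 in neutral II, and was 7.03-fold higher (log2 difference 2.81, SE 0.12, limma adjusted p = 1.12e-06), the largest of all tested. CG16978 gave 7645, 7750.2 and 7275 in aggressive I and 1759, 2096 and 1863 in neutral II, 3.88-fold higher (adjusted p = 2.59e-05). CG34227 gave 70357, 74599.9 and 74635 in aggressive I and 26307, 23449 and 23410 in neutral II, 3.03-fold higher (adjusted p = 0.000392). In all 3 the arrays of a group lay close together and far from the other group. CG34227 stood at 77491, 75094 and 57811 in aggressive II and 54311, 69925 and 62265 in neutral I, which leaves neutral II as the low population. Further firm increases were those of atk, an extracellular protein with leucine-rich repeats (log2 difference 1.05), CG13428 (1.22, adjusted p = 0.0843 with only the 6 arrays) and CG42329 (0.94), and of CG11594, with signals of 12993, 13203 and 13844 in aggressive I and 6961, 6615 and 6583 in neutral II. CG5397 fell, with 780.3, 723.3 and 787.2 in aggressive I, against 2920.3, 3740.4 and 2625 in neutral II (3.64-fold lower, log2 difference -1.86, adjusted p = 0.000231). Other firm decreases were those of phu (log2 difference -1.01) and CG11458 (-0.84, adjusted p = 0.0778 with only the 6 arrays). Of the other genes with large increases, CG16799 (1.23), CG15394 (1.19), CG13623 (0.98) and RNaseX25, a secreted ribonuclease (1.26), were not firm. CG16799 lost its call without aggressive I array 3 or neutral II array 2, CG15394 passed in 1 fit, without aggressive I array 1, and CG13623 and RNaseX25 passed in 1 fit, without neutral II array 3 (adjusted p up to 0.174 over the 4 genes). The decreases of CG34205 (-1.53) and CG15651 (-1.30) were lost without any 1 of the 6 arrays (adjusted p up to 0.173). Of the 10 probe sets that passed and name no single gene, 5 were higher and 5 lower.

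For 10 genes that passed, more than 1 probe set was tested, and in each of the 10 at least 1 of them did not pass. Argk1 encodes arginine kinase, which buffers ATP in muscle and neurons. Its bright probe set averaged 51505 in aggressive I and 54138 in neutral II (log2 difference -0.05, adjusted p = 0.924). A dim probe set gave 836.9, 422.8 and 409.3 in aggressive I and 1587, 1761 and 1847 in neutral II (log2 difference -1.53, limma adjusted p = 0.0409), and passed in 1 of the 6 fits, without aggressive I array 1 (adjusted p 0.0274 to 0.146). CG31145, chosen after its values were seen, has 3 probe sets, with mean signals of 5218, 1264 and 320.5 in aggressive I and 6148, 2264 and 1665 in neutral II. Their log2 differences were -0.22, -0.77 and -2.06, and only the last is firm, the second being lost without any 1 of the 6 arrays (adjusted p 0.0665 to 0.117). The potassium channel Shab passed through 1 of 3 probe sets (-1.02, beside -0.44 and -0.30), the actin-binding Svil through 1 of 4 (-1.21, beside -1.20, -0.51 and -0.30) and the transcription factor gene Glut4EF through 1 of 4 (-0.60, beside -0.33, -0.83 and -0.70). In these 3 genes all probe sets had the same sign. Each call passed in 1 of the 6 fits, that without neutral II array 1 for Shab, aggressive I array 2 for Svil and aggressive I array 3 for Glut4EF, with adjusted p up to 0.181 in the others. For the synaptic adhesion gene Nlg3 they did not, with 1.21 in the probe set that passed and -0.26 and -0.22 in the others, and the call was lost in all 6 fits (adjusted p 0.0747 to 0.144). CG42329 had 0.94 (firm) and -0.18. In olf413, a gene outside the naming rule chosen for its split, the probe set that passed had -0.79, beside 0.66 and 0.03, and its call was lost in 3 of the 6 fits, those without aggressive I array 2 or neutral II array 1 or 3 (adjusted p 0.0391 to 0.0749). In Mob2, chosen likewise, it had -0.45, beside 0.18 and -0.10, and the call was lost in all 6 fits (adjusted p 0.0822 to 0.152). Probe sets of a gene can read different transcripts or lie at different distances from the 3′ end, and the 3′ to 5′ ratios of the RNA differed between the groups, as given above. The part of either in these splits was not tested.

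The same measure in aggressive II and neutral I, whose arrays are none of the 6, gives a view of how far the differences recur. There 25 of 8379 probe sets passed (0.298%), 9 higher and 16 lower in aggressive II, and 674 (8.04%) had an unadjusted p under 0.05. Of the 98 calls between aggressive I and neutral II, 17 were among them, which is 17.3% of the 98 and 68% of the 25. Both sets of p-values come from the same fit and share each probe set's estimate of the spread between arrays. The calls in the pairs are therefore not independent, and the overlap is only a description. In 11 of the 17 the direction was the same. CG3397, CG16978, CG32444 and Mtk were higher in the aggressive population of both pairs, and BomS4, PGRP-SC2, Obp56a, Obp99b, Pss, CG11458 and Cyp4p1 were lower. Over all 98, the sign was shared in 54 (55.1%), beside 50.2% of all probe sets tested. CG3397 stood at 8973, 8554 and 9469 in aggressive II and 4497, 4936 and 4944 in neutral I, a log2 difference of 0.91 (limma adjusted p = 0.00776). Obp56a stood at 2539, 2639.6 and 2364 in aggressive II and 13656, 13176 and 11288 in neutral I (-2.27, adjusted p = 3.14e-05). Obp99b stood at 8577, 9559 and 10244 in aggressive II and 25317, 27058 and 27805 in neutral I (-1.47, adjusted p = 3.14e-05), and in that pair the groups do not overlap either.

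In the other 6 of the 17 the direction was opposite. CG5397 was at 2293, 3023 and 2781 in aggressive II and 692.9, 805.3 and 661.9 in neutral I, a log2 difference of 1.79 (limma adjusted p = 0.00027), where aggressive I minus neutral II gave -1.86. CG42329, its neighbour among the genes tested, went the other way, with -1.38 between aggressive II and neutral I and 0.94 between aggressive I and neutral II. Pepck2 was at 1349.6, 1359.5 and 1266 in aggressive II and 3527, 3165 and 3739 in neutral I (-1.31, adjusted p = 0.000127), against 0.78 in the first pair. CG9377 and CG11841 had log2 differences of 0.66 and -0.62 in aggressive II minus neutral I, against -0.55 and 0.49 in the first pair, and both lost the first call without any 1 of its 6 arrays (adjusted p 0.0531 to 0.0845 and 0.0665 to 0.164). The last is an unnamed probe set with 1.71 and -1.54.

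**Figure D5:**
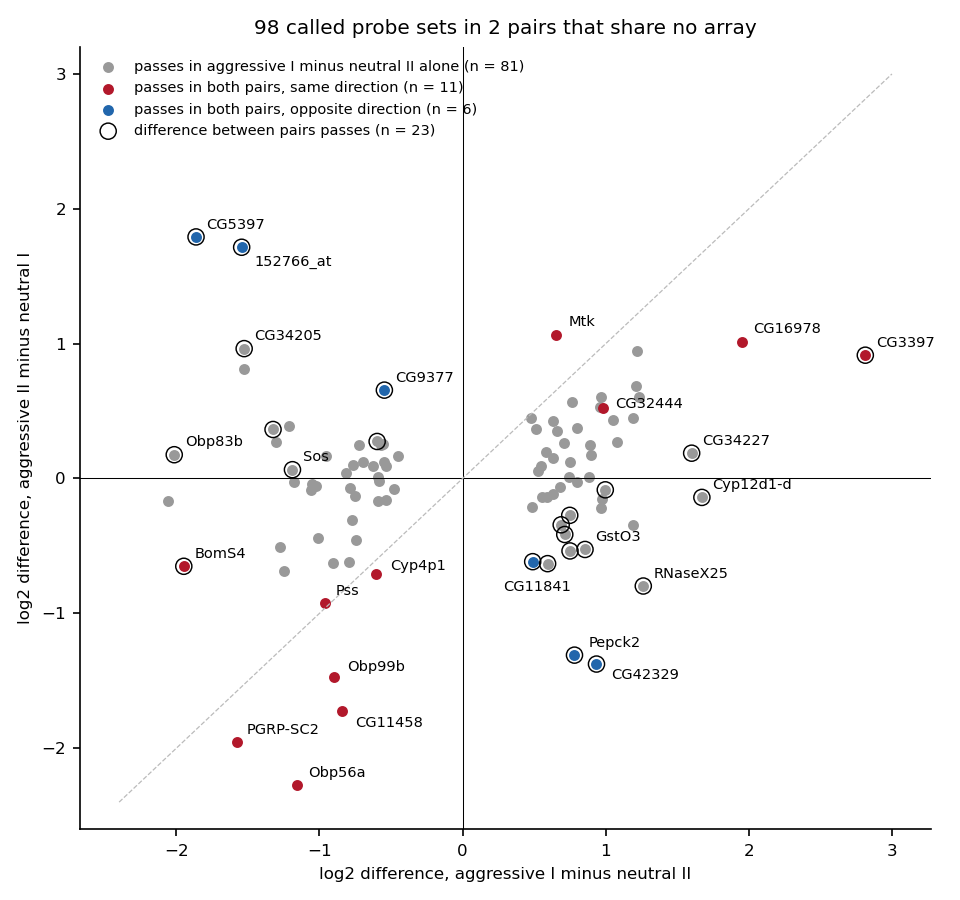
Log2 difference of aggressive I minus neutral II (horizontal axis) against aggressive II minus neutral I (vertical axis) for the 98 probe sets that passed between aggressive I and neutral II, with the dashed line where both are equal. Of these, 11 passed in both pairs in the same direction (red), 6 passed in both in opposite directions (blue), and open circles mark 23 where the difference between the pairs passed.

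The difference between the 2 pairs was tested itself. It passed in 25 probe sets (0.298%), and 23 of these are among the 98, where 14 had been higher and 9 lower. The 98 were chosen on 1 of the terms of that difference, so the share among them is only a description. For Obp83b the difference between the pairs was -2.19 (limma adjusted p = 0.00199), for BomS4 -1.30 (adjusted p = 0.00199), for CG34227 1.41 (adjusted p = 0.016) and for Cyp12d1-d 1.81 (adjusted p = 0.0415). BomS4 thus fell in both pairs and by more in the first. For PGRP-SC2 and Pss the difference between pairs was small, 0.38 and -0.03 (adjusted p = 0.748 and 0.967). Sos (-1.25, adjusted p = 0.0454) and GstO3 with its neighbour se (1.38 and 1.13, adjusted p = 0.0246 and 0.0208) were among those that passed.

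The place of the other populations was read from the mean of each on the log2 scale. Of the 98 probe sets, 34 (34.7%) had both other populations nearer to neutral II than to aggressive I, and 24 (24.5%) had both nearer to aggressive I. In 25 (25.5%) aggressive II was nearer to aggressive I and neutral I nearer to neutral II, and in 15 (15.3%) the reverse held. The shares over all probe sets tested were 37.6%, 27.3%, 18.1% and 17.0%. Obp83b, Sos and Pepck2 are of the first kind, CG3397, CG34227, CG11594 and Cyp12d1-d of the second, CG16978, PGRP-SC2 and Obp56a of the third, and CG5397 and CG42329 of the last. A population outside the range between aggressive I and neutral II was still counted with the nearer end. In Pepck2 aggressive II lay below neutral II and stood furthest from the others.

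Genes that passed were placed along the genome by the RefSeq gene order, which was possible for all 87 and for 6852 of the genes tested. In 5 cases 2 that passed were next to each other among the genes tested. NimB4 with NimB5, GstO3 with se, and atk with Tdh moved together, and GstD2 with GstD3 and CG42329 with CG5397 moved in opposite directions. Tdh, a threonine dehydrogenase chosen as a neighbour after its values were seen, had a log2 difference of 0.77 (limma adjusted p = 0.0184, and 0.0381 to 0.0745 over the 6 fits that leave out 1 array).

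Lists with no gene passing in limma were proteasome subunits (26 tested, median 0.04), UDP-glycosyltransferases (14, 0.10), carboxylesterases (9, 0.11), heat shock proteins (11, -0.09), phototransduction (21, 0.02), synaptic vesicle release (16, -0.04), glia (15, -0.06), juvenile hormone and takeout genes (11, -0.13), sex determination (11, 0.08), storage and yolk proteins (4, 0.03), midgut proteases (19, 0.07) and testis and accessory gland genes (7, -0.13). Potassium channel genes (17, -0.06) had none either at 1 probe set per gene. In these 13 lists between 0 and 3 genes had an unadjusted p under 0.05. The mitochondrial protein gene mRpL43 and the cuticle gene Ccp84Ag had large differences, 1.58 and -1.55, that did not pass (adjusted p = 0.0804 and 0.168), as their arrays spread widely within a group.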

How the data were processed

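Single-colour Affymetrix arrays read RNA of male heads, with 1 array for each sample. The deposited values are MAS5 intensities on a linear scale for 14010 probe sets, per the submitters' processing notes; the MAS5 version is not given in the sources used here. All arrays share a 2% trimmed mean of about 2500, so differences in total RNA are not measured. Scanner images and detection calls were not used here, and the number of arrays limits the precision.

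The sample titles gave groups and replicate numbers. Controls, 44 probe sets, were dropped. Of 13966 others, 12443 had 1 gene in the array's annotation table, 327 several and 1196 none, and only the first were named. Of these 12394 matched the Drosophila melanogaster RefSeq table through Entrez identifiers, with 0 symbols changed. That table gave names and gene order only, since the deposited values name no build.

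Intensities were transformed as log2(intensity + 94.6), the 10th percentile, and centred on each array's median. Fold changes are on this scale and understate changes of dim probe sets. The 8379 probe sets with a mean over all 12 arrays above the 40th percentile were fitted with limma 3.58.1 (lmFit, eBayes) in R 4.3.3, with 1 mean for each of 4 populations (residual degrees of freedom 8, prior 2.92). Benjamini-Hochberg adjustment was over all of them at 0.05. In lists, the brightest probe set on average stands for a gene.

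The comparison and the 31 gene lists were chosen with earlier results of these data known. After results had been seen, LysRS was taken out of the immune list and Lipt2 out of the lipid list, as name patterns had caught genes of another kind. Genes were named by a rule: up to 15 called genes with the largest difference in each direction, called genes of a list, those also called between aggressive II and neutral I or in the difference between pairs, up to 2 genes of each list by smallest p, and Cyp6a20. Others are said to be chosen after their values were seen, except unpassed list members given as list values. Same-numbered arrays of the 2 groups did not deviate together. Alternatives were the pseudocount, normalisation, filter, variance prior, array weights, replicate block, the arrays in the fit, and leaving out each array.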

Additional observations from a re-analysis of the deposited data

Results flagged for a closer look

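The difference between the pairs, (aggressive I minus neutral II) minus (aggressive II minus neutral I), passed a limma adjusted p of 0.05 for 23 of the 98 probe sets called between aggressive I and neutral II. The 2 pairs share no array. It was below 0 for CG5397 (-3.65), an unnamed probe set (-3.26), CG34205 (-2.49), Obp83b (-2.19), a further unnamed probe set (-1.69), BomS4 (-1.30), Sos (-1.25), CG9377 (-1.20) and Glut4EF (-0.87). It was above 0 for CG31937 (1.02), Galt (1.03), CG11594 (1.08), CG11841 (1.11), se (1.13), CG13794 (1.23), an unnamed probe set (1.29), GstO3 (1.38), CG34227 (1.41), Cyp12d1-d (1.81), CG3397 (1.90), RNaseX25 (2.06), Pepck2 (2.09) and CG42329 (2.31). BomS4 and CG3397 moved the same way in both pairs and by more in aggressive I minus neutral II. For 5 of the named genes (CG5397, CG9377, CG11841, Pepck2 and CG42329) each pair passed on its own in opposite directions.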

How the results depend on the processing

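Of the named genes none changed direction under any of the alternatives run. The 98 calls between aggressive I and neutral II became 43 (22 higher, 21 lower) with no filter on dim probe sets, 172 (96 and 76) when the variance prior was trended and robust, and 26 with only the 6 arrays compared, 23 of them among the 98. The sources do not say that replicate numbers pair arrays, and same-numbered arrays of the groups had deviations that correlated at -0.010, -0.0097 and 0.014. With the replicate block, 51 were called (28 higher, 23 lower), 50 of them among the 98, 1 cytochrome P450 and 3 immune genes. Leaving out 1 array gave 36 to 57 calls. Between aggressive II and neutral I, 25 calls became 43 with the filter at the 60th percentile, 55 with the trended and robust variance, 10 with only the arrays compared, and 13 to 28 without 1 array. For the difference between the pairs, 25 became 39 with quantile normalisation, 53 with the filter at the 60th percentile, 69 with the trended and robust variance, and 13 to 21 without 1 array. With only the 6 arrays, 1 gene passed in each of the lists of glutathione S-transferases, cytochromes P450, odorant-binding proteins and immune genes. With no filter 1 cytochrome P450 and 3 immune genes passed. Without 1 array, 1 to 3 glutathione S-transferases, 1 cytochrome P450, 3 odorant-binding proteins and 3 immune genes passed. Oxidative phosphorylation genes stayed at 0 in every alternative. Fits without an array hold fewer samples; otherwise the cause was not tested. Cyp6a20 passed in 0 of 16 alternatives. Probe sets under the filter, and probes whose signal lies near 94.6, give little information at this signal.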

Other observations

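Further genes passed between aggressive I and neutral II that lie outside the rule for named genes, and those below were chosen after their values were seen. MtnA, a metallothionein that binds copper and other metals and was among the brightest probe sets, gave 138088, 142980 and 132661 in aggressive I and 96798, 90584 and 91776 in neutral II (log2 difference 0.58, limma adjusted p = 0.0272). Sodh1, a sorbitol dehydrogenase, gave 32121, 34748 and 28619 in aggressive I and 21451, 21034 and 21408 in neutral II (log2 difference 0.59, adjusted p = 0.0221). Mpi, which interconverts mannose and fructose phosphates, rose by a log2 difference of 0.63, bgm, an acyl-CoA synthetase of very long fatty acids, by 0.55, Taz, tafazzin, which remodels cardiolipin, by 0.89, and fit, a peptide of the head fat body, by 0.63. The arrays of the groups did not overlap for any of these 6 genes, as for all 98 calls and for 19.5% of all probe sets tested. MtnA, bgm, Taz and fit lost their calls without any 1 of the 6 arrays, Sodh1 passed in 1 fit, without aggressive I array 3, and Mpi in 1 fit, without aggressive I array 2 (adjusted p up to 0.174 over the 6 genes).

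Among the genes that fell, sug, a zinc finger protein that responds to sugar feeding, gave 4582, 4577 and 5131 in aggressive I and 8212, 7249.5 and 7082 in neutral II (log2 difference -0.63, limma adjusted p = 0.0155). Gyg, glycogenin, the primer of glycogen, fell by 0.57 on the log2 scale, Pgant5, which starts O-linked glycans, by 0.95, and Lk6, a kinase of the translation factor eIF4E, by 0.54. A brighter probe set of Lk6 had a log2 difference of -0.34 and did not pass (limma adjusted p = 0.393). Other single genes that fell, which form no list, had log2 differences of -0.53 for Spp, a signal peptide peptidase, -0.48 for Usp8, a deubiquitinase, -0.73 for APP-BP1, of NEDD8 activation, and -0.55 for osa, of the Brahma chromatin remodelling complex. Gyg, Usp8, APP-BP1 and osa lost their calls without any 1 of the 6 arrays, and Pgant5, Lk6 and Spp passed in 1 fit each, without aggressive I array 1 (Pgant5), neutral II array 1 (Lk6) or aggressive I array 3 (Spp). The call of sug was lost in 4 fits and passed without aggressive I array 3 or neutral II array 3. Over the called probe sets of these 8 genes the adjusted p reached 0.177 in the fits that leave out 1 of the 6 arrays.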
